A study of Mus musculus with 7 samples.

Results

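Mesothelial identity genes are a set of 10 genes by which mesothelial cells are recognised, namely Msln, Upk3b, Upk1b, Lrrn4, Calb2, Gpm6a, Wt1, Muc16, Bnc1 and Nkain4. The list was set by gene name, with earlier results of these data known. 9 of the 10 were found among the 12771 genes of the count table and all 9 were tested, and Muc16 was not analysed here. Their transcripts were measured in cancer-associated fibroblasts (CAFs) from pancreatic tumors that differed in the Brca2 status of the cancer cells.

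KPC cells, a mouse pancreatic cancer line, were given a lentiviral pLKO.1 short hairpin RNA directed at Brca2 (called shBrca2) or a hairpin with no target (called shControl), selected with puromycin and injected into the pancreas of male C57BL/6 mice (C57BL/6 J in the study's methods) aged 8 weeks. Tumors were taken 2 to 3 weeks later. Immune and epithelial cells were depleted with beads against CD45 and EpCAM, and live CD45-/CD31-/EpCAM-/PDPN+ cells were sorted. Their poly(A) RNA was read at the 3' end with a variant of MARS-seq, giving 3 libraries for shControl, numbered 1, 2 and 4, and 4 for shBrca2, numbered 1 to 4. Since the injected cancer cells held the hairpin and the sorted cells did not, Brca2 transcript in the libraries does not check the labels. Both groups carried a hairpin vector, and no tumor without one was compared.

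The mesothelium is the single layer of flat cells that lines the body cavities and covers the organs in them, the pancreas included. Mesothelial cells come from the mesoderm but keep epithelial features such as keratins and junctions, and they express podoplanin (PDPN), so the gate used here does not remove them. In pancreatic tumors they are known as a source of antigen-presenting CAFs, which carry MHC class II genes while losing mesothelial features.

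Of the 10 members, 5 had an upstream sequence in the RefSeq promoter table for GRCm38.p6, with 6 windows among them. Upk1b, Msln, Calb2, Wt1 and Nkain4 had none. The 250 bases before the start site are given for Upk3b and Lrrn4 (for Lrrn4 a start inside the RefSeq span of the gene), whose levels followed each other most closely from library to library, and for the first of the Gpm6a start sites, whose levels followed theirs less closely. Capitals mark CATTCC, the core bound by TEAD transcription factors, or the same letters on the opposite strand. The printed bases lie at chr5:136038246-136038495 on the plus strand for Upk3b and at chr2:132880863-132881112 on the minus strand for Lrrn4. Those of Gpm6a lie at chr8:54779184-54779433 on the plus strand. Each stretch is written 5′ to 3′ on the strand of its gene.
Upk3b: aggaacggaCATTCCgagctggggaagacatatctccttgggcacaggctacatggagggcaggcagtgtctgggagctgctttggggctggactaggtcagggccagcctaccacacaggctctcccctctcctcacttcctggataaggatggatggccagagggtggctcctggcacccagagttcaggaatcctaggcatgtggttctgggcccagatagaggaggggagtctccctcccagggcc
Lrrn4: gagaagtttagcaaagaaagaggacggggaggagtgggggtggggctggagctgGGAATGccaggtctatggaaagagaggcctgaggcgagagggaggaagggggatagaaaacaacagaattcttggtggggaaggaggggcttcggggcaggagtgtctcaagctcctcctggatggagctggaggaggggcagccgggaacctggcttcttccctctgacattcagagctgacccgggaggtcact
Gpm6a: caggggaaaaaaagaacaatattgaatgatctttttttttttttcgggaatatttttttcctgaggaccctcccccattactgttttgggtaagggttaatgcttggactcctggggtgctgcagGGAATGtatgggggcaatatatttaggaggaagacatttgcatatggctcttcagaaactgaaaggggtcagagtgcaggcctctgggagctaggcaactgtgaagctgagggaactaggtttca

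CATTCC began 241 bases before the start in Upk3b on the gene's strand, and its reverse complement began 196 bases before the start in Lrrn4 and 125 bases before it in Gpm6a. The motif was held by 3 of the 6 member windows and by 14.7% of all 32851 windows of the same table. The WT1 motif GTGGGAG and the GATA motif AGATAA were in 0 of the 6 member windows and in 9.73% and 11.2% of all windows. These windows ran from 250 bases before the start to 50 bases after it. The values are matches of letters on either strand, and no binding was measured.

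Total counts ran from 1898679 in shBrca2 replicate 3 to 5990579 in shBrca2 replicate 2. Values below are normalized counts, that is, counts divided by the DESeq2 size factor of the library. Pdpn, whose protein was used in the sort, had 457.4 to 670.3 normalized counts per library. The fibroblast markers Pdgfra and Col1a1, which were not used in the sort, were also abundant, at 549.0 to 687.6 and 8269 to 16333. Epcam and Ptprc were not analysed here. Markers of other cells were also counted. The summed levels did not overlap for 6 measured immune genes, at 201.6 to 227.6 in shControl and 307.4 to 356.7 in shBrca2 libraries, with Csf1r and C1qa called higher and Jchain lower. Csf1r held the largest part of these sums, at 86.6 to 149.3 in shControl and 226.3 to 276.3 in shBrca2 libraries. The C1qa values overlapped between the groups (DESeq2 adjusted p = 0.092). The number called higher was 1 when any library other than shBrca2 replicate 3 was left out. Of 6 measured endothelial genes Flt1 was called higher and 0 lower, and 3 fold changes were positive, with a list median of -0.30 on the log2 scale. The defining gene Pecam1 (-3.60), Tek (-1.55) and Vwf (-1.11) went the other way on that scale without a call. They were at low counts, Pecam1 at 17.7 or less in every library. The sums were 123.0 to 243.2 in shControl and 205.2 to 297.1 in shBrca2 libraries. Of 10 measured acinar genes 1 was called higher and 4 lower, and the sums were 162.5 to 280.2 and 106.7 to 164.1. The part of these cells in the values below was not tested. Over all 12768 tested genes 1154 were called between the groups (9.04%), with 481 higher and 673 lower in shBrca2 CAFs.

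Mesothelial transcripts were a small share of every library. The 9 members took 0.0259%, 0.039% and 0.0852% of all counts in the shControl libraries (in the order of replicates 1, 2 and 4), and 0.0672%, 0.0695%, 0.0823% and 0.064% in the shBrca2 libraries (replicates 1 to 4), an order kept for all values below. Both the lowest and the highest share were therefore in shControl libraries, and the shBrca2 libraries lay between. In bulk RNA, fewer cells of a type and less RNA per cell cannot be told apart.

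Between the groups, 1 of the 9 members was called higher in shBrca2 CAFs, against 3.77% of all tested genes, and 0 were called lower, against 5.27%. A call required a Benjamini-Hochberg adjusted p under 0.1 in the DESeq2 likelihood ratio test over all genes, an absolute log2 fold change over 0.5 and a mean normalized count over 5. With edgeR, 0 members were called lower as well. 7 of the 9 fold changes were positive, with a median of 0.70 on the log2 scale against 0.01 over all tested genes. Leaving out shControl replicate 1 gave a median of 0.28, and leaving out shControl replicate 4 one of 1.35.

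The member that rose was Calb2, which encodes the calcium-binding protein calretinin, a stain used to recognise mesothelium. Calb2 had 0 normalized counts in each of the 3 shControl libraries, against 26.7, 8.2, 38.0 and 8.1 in the shBrca2 libraries. The groups did not overlap, and within shBrca2 CAFs replicates 1 and 3 lay well above replicates 2 and 4. Behind these values stood 31, 14, 22 and 8 counts. With a floor of 3 counts over the shControl group, Calb2 was at least 20.2-fold higher in shBrca2 CAFs, with a DESeq2 adjusted p of 2.8e-06. It is a transcript of low level, so each shControl value of 0 says that it was not detected at that depth. The call held in each of the 11 alternatives that gave Calb2 an adjusted p, with values from 2.67e-07 to 0.0154. These are weak checks. Calb2 passed the filter on low counts through shBrca2 libraries only, and leaving out a shControl library left the remaining ones at 0.

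Among the surface proteins, Msln encodes mesothelin, a glycoprotein anchored in the membrane of mesothelial cells. Msln had 96.5, 397.2 and 519.5 normalized counts in shControl CAFs and 660.0, 558.4, 623.5 and 664.7 in shBrca2 CAFs. Every shBrca2 library lay above every shControl library, as was the case for 7.78% of all genes, while the reverse order, which no member showed, held for 9.29%. Msln was not called, at a log2 fold change of 0.89 ± 0.55 (SE) with a DESeq2 adjusted p of 0.44. Of the members, Msln and Calb2 had groups that did not overlap. The shControl values spread 5.38-fold from lowest to highest and the shBrca2 values 1.19-fold.

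Upk1b and Upk3b encode uroplakins, membrane proteins first described in the bladder lining. Upk1b, a tetraspanin, had 73.5, 167.0 and 403.7 normalized counts in shControl CAFs and 352.8, 398.1, 366.1 and 280.5 in shBrca2 CAFs. The highest value was that of shControl replicate 4, while the other 2 shControl libraries lay below all shBrca2 libraries. Upk1b was not called, at a log2 fold change of 0.70 ± 0.57 (SE; DESeq2 adjusted p = 0.61). Upk3b had 42.7, 72.1 and 255.8 normalized counts in shControl CAFs and 57.7, 68.8, 177.9 and 73.2 in shBrca2 CAFs. A single library in each group stood high, shControl replicate 4 and shBrca2 replicate 3, and the remaining 5 lay between 42.7 and 73.2. Its log2 fold change was -0.40 ± 0.76 (SE), with a 95% interval from -1.88 to 1.09 and a DESeq2 adjusted p of 0.88.

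Lrrn4 (a leucine-rich repeat membrane protein), Nkain4 (a partner of the sodium/potassium pump) and Gpm6a (a membrane glycoprotein also found in neurons) completed the membrane proteins. Lrrn4 had 70.9, 168.3 and 484.4 normalized counts in shControl CAFs and 177.3, 199.9, 366.1 and 163.6 in shBrca2 CAFs. Nkain4 had 122.1, 161.9 and 577.8 in shControl CAFs and 240.1, 401.6, 454.2 and 272.4 in shBrca2 CAFs. In both genes shControl replicate 4 was the highest of the 7 libraries and shControl replicate 1 the lowest. The log2 fold change was -0.09 ± 0.70 for Lrrn4 (SE; DESeq2 adjusted p = 0.96) and 0.25 ± 0.63 for Nkain4 (adjusted p = 0.91). The 95% intervals, from -1.47 to 1.28 and from -0.98 to 1.48, left room for changes in either direction.

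Gpm6a had 16.2, 10.1 and 46.7 normalized counts in shControl CAFs and 43.9, 74.0, 36.3 and 35.6 in shBrca2 CAFs. Here the highest library was shBrca2 replicate 2, and shControl replicate 4 lay among the shBrca2 values. Its unadjusted p was 0.043, but the adjusted p was 0.26 (DESeq2), at a log2 fold change of 0.97 ± 0.47 (SE).

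Wt1 and Bnc1 encode zinc-finger transcription factors that mesothelial cells keep from development. Wt1 had 481.8, 420.0 and 677.1 normalized counts in shControl CAFs and 530.1, 691.3, 607.9 and 507.2 in shBrca2 CAFs. Its range was 1.61-fold in shControl libraries, the narrowest of the 8 more abundant members there, and 1.36-fold in shBrca2 libraries. The log2 fold change of 0.15 had a standard error of 0.21 and a 95% interval from -0.26 to 0.56, so a rise of 1 on the log2 scale lay outside the interval (DESeq2 adjusted p = 0.80). Bnc1 had 6.8, 12.7 and 35.0 normalized counts in shControl CAFs and 40.4, 26.8, 27.6 and 31.5 in shBrca2 CAFs. Again shControl replicate 4 lay among the shBrca2 libraries and the other 2 shControl libraries below them, at a log2 fold change of 0.80 ± 0.48 (SE; DESeq2 adjusted p = 0.41).

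**Figure D1:**
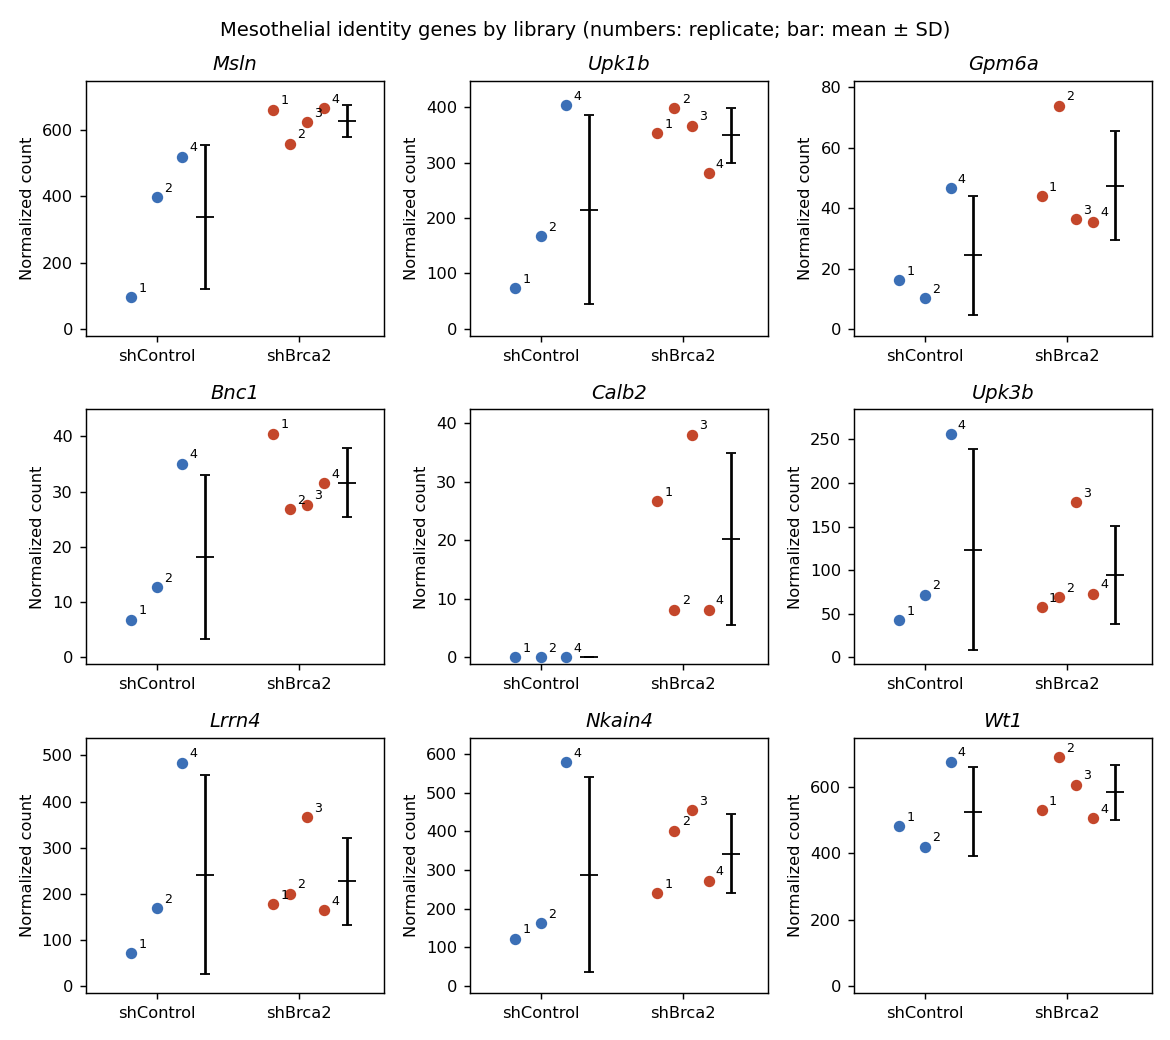
Normalized counts (y axis, linear and from 0) of the 9 measured members in each shControl (blue) and shBrca2 (red) library, with the replicate number beside each point and the mean ± SD as a bar. For Upk1b, Bnc1 and Nkain4 shControl replicate 4 lies among or above the shBrca2 libraries while shControl replicates 1 and 2 lie below them, and Calb2 is at 0 in all 3 shControl libraries.

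The spread among shControl libraries was thus wider than the spread among shBrca2 libraries. Of the 8 members with a mean normalized count of at least 20 (all but Calb2), 8 had a wider fold range in shControl CAFs, although that group holds fewer libraries. The same was true of 46.6% of the 9062 genes at that level. The members were read in the same libraries and in part rose and fell together. Their 8 ranges are therefore not separate observations. The lowest library was shControl replicate 1 for 6 of the 8 members and shControl replicate 2 for Gpm6a and Wt1. The highest was shControl replicate 4 for Upk3b, Upk1b, Lrrn4 and Nkain4, shBrca2 replicate 2 for Gpm6a and Wt1, shBrca2 replicate 1 for Bnc1 and shBrca2 replicate 4 for Msln.

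Which members were called depended on shControl replicate 4. Without that library, 6 of the 9 members were called higher in shBrca2 CAFs, against 3.15% of all genes tested in that fit, and all 9 fold changes were positive. The log2 fold changes were then 1.56 for Upk1b (DESeq2 adjusted p = 1.05e-04), 1.27 for Nkain4 (0.00184), 1.84 for Gpm6a (0.00586), 1.35 for Msln (0.0158) and 1.75 for Bnc1 (0.0196), beside Calb2. Lrrn4, Upk3b and Wt1 were not called in that fit either, at 0.92 (adjusted p = 0.182), 0.70 (0.545) and 0.37 (0.493). Without shControl replicate 1 or 2 only Calb2 was called, and 6 of the 9 fold changes were positive. The labels give no reason to leave out any of the 3 libraries, and the values with all 7 are the ones reported.

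**Figure D2:**
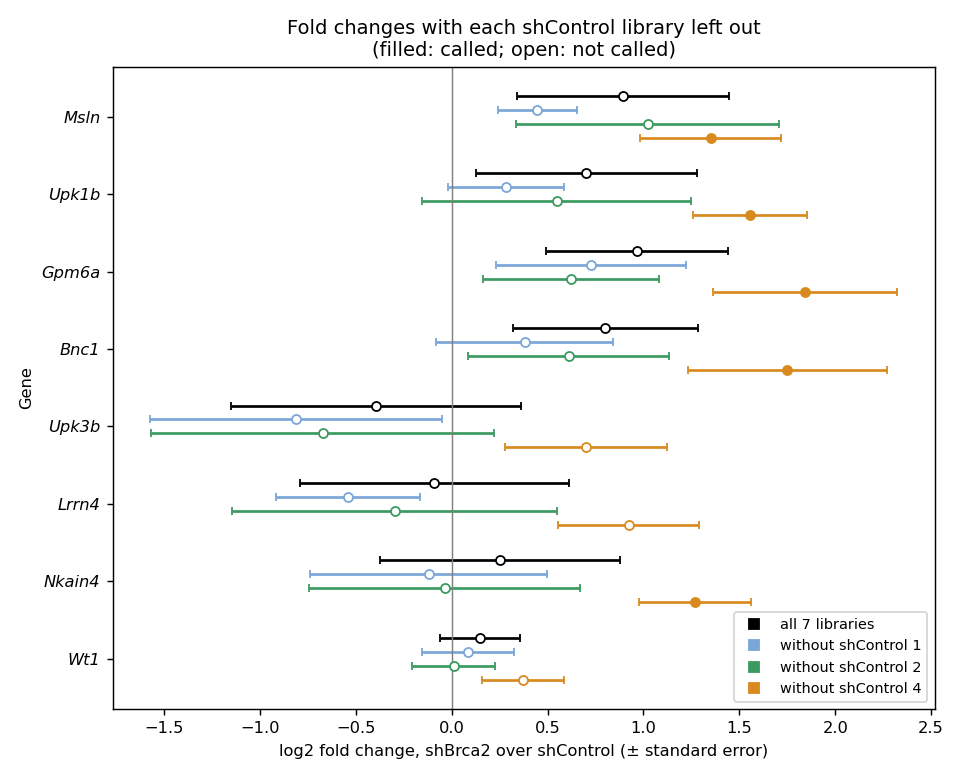
Log2 fold change of shBrca2 over shControl (x axis, ± standard error) for 8 members with all 7 libraries and with each shControl library left out in turn. Filled symbols mark called genes. Msln, Upk1b, Gpm6a, Bnc1 and Nkain4 are filled only without shControl replicate 4; Calb2, which was called in all 4 fits, is not drawn.

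The members did not move as one block. After each group's mean was taken off, the log2 level of a member was set against the mean of the other 7 members over the 7 libraries. Pearson's r was 0.964 for Upk1b, 0.949 for Nkain4, 0.947 for Lrrn4, 0.865 for Upk3b, 0.86 for Bnc1, 0.74 for Msln, 0.725 for Wt1 and 0.626 for Gpm6a. The closest pair was Upk3b and Lrrn4 (r = 0.964), and Gpm6a with Wt1 was another close one (r = 0.931), whereas Msln had r = 0.249 with Wt1 and 0.274 with Gpm6a. All of these values rest on the same 7 libraries, over which the mean log2 level of the 8 members, centred on their average, ran from -1.3 in shControl replicate 1 to 0.773 in shControl replicate 4. They are descriptions without a test.

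Ratios between members within a library are free of the size factor. Counts of Msln per count of Upk3b were 2.26, 5.51 and 2.03 in shControl CAFs and 11.5, 8.12, 3.51 and 9.08 in shBrca2 CAFs. The ratio of Upk1b to Upk3b was 1.72, 2.32 and 1.58 in shControl CAFs and 6.12, 5.79, 2.06 and 3.83 in shBrca2 CAFs. The ratio of Msln to Lrrn4 was 1.36, 2.36 and 1.07 in shControl CAFs and 3.72, 2.79, 1.70 and 4.06 in shBrca2 CAFs. In all 3 ratios shBrca2 replicates 1, 2 and 4 lay above every shControl library and shBrca2 replicate 3 lay below shControl replicate 2. These pairs were picked after the values had been seen and were not tested.

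**Figure D3:**
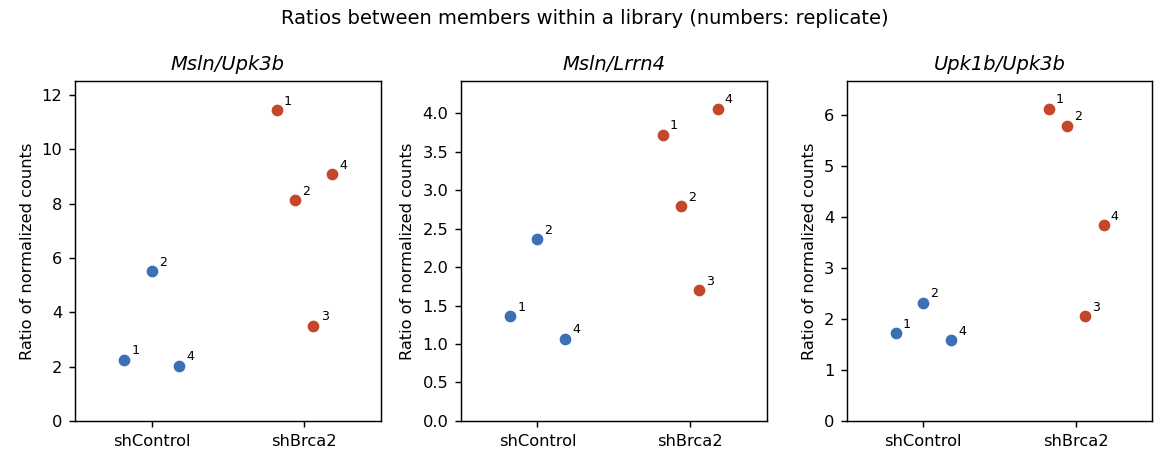
Ratio of normalized counts (y axis, linear and from 0) between pairs of members in each shControl (blue) and shBrca2 (red) library, with the replicate number beside each point. The Msln to Upk3b ratio is 2.03 to 5.51 in shControl and 3.51 to 11.5 in shBrca2 libraries, with shBrca2 replicate 3 inside the shControl range in each panel.

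Other genes associated with mesothelium were counted from a separate list of 26, of which 24 were tested. Like the gene lists below, it was chosen with earlier results of these data known. 11 of the 24 were called higher in shBrca2 CAFs, 2 lower and 11 in neither direction. Over all tested genes 3.77% were called higher and 5.27% lower. The median fold change of the list was 0.77 on the log2 scale. Without shControl replicate 1 the number called higher was 7, and without shControl replicate 4 it was 15. The simple-epithelial keratins, which mesothelial cells share with epithelia, rose together: Krt8 by 1.58 ± 0.24 on the log2 scale (SE; DESeq2 adjusted p = 1.7e-07), Krt18 by 1.18 ± 0.30 (0.0042), Krt7 by 1.16 ± 0.38 (0.045) and Krt19 by 0.996 ± 0.364 (0.085). The call was lost for Krt7 without shControl replicate 1 (adjusted p = 0.144) or shBrca2 replicate 1 (0.171), and for Krt19 in 5 of the 7 fits that left out 1 library and in edgeR (adjusted p = 0.137). Krt8 had 84.6, 151.8 and 168.3 normalized counts in shControl CAFs and 462.1, 362.0, 350.6 and 427.9 in shBrca2 CAFs. For Krt8, shControl replicate 4 thus lay with the other shControl libraries and not with the shBrca2 libraries as in Upk1b. For Krt19 that library had 500.0 normalized counts, among the shBrca2 values of 440.7 to 699.5, so the Krt19 groups overlapped.

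Slpi, a secreted protease inhibitor, rose likewise, with 908.0, 3121 and 2486 normalized counts in shControl CAFs and 7612, 6156, 7007 and 6715 in shBrca2 CAFs (log2 fold change 1.66 ± 0.32, SE; DESeq2 adjusted p = 6.6e-05). Gata4, a transcription factor of visceral mesoderm, had 3.4, 7.6 and 1.0 normalized counts in shControl CAFs and 19.8, 18.1, 19.0 and 25.4 in shBrca2 CAFs (2.45 ± 0.59; adjusted p = 9.1e-04). The groups did not overlap in either gene. Cdh3, which encodes P-cadherin, rose by 1.45 ± 0.34 on the log2 scale (adjusted p = 0.0011). The genes that fell were Efemp1, encoding the matrix protein fibulin-3, at -2.0 ± 0.38 on that scale (DESeq2 adjusted p = 1.7e-05), and Tcf21, a mesoderm transcription factor, at -1.63 ± 0.30 (adjusted p = 7.0e-06). Aldh1a2, which makes retinoic acid in mesothelium and fibroblasts, was not called (-0.39 ± 0.22; adjusted p = 0.36).

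**Figure D4:**
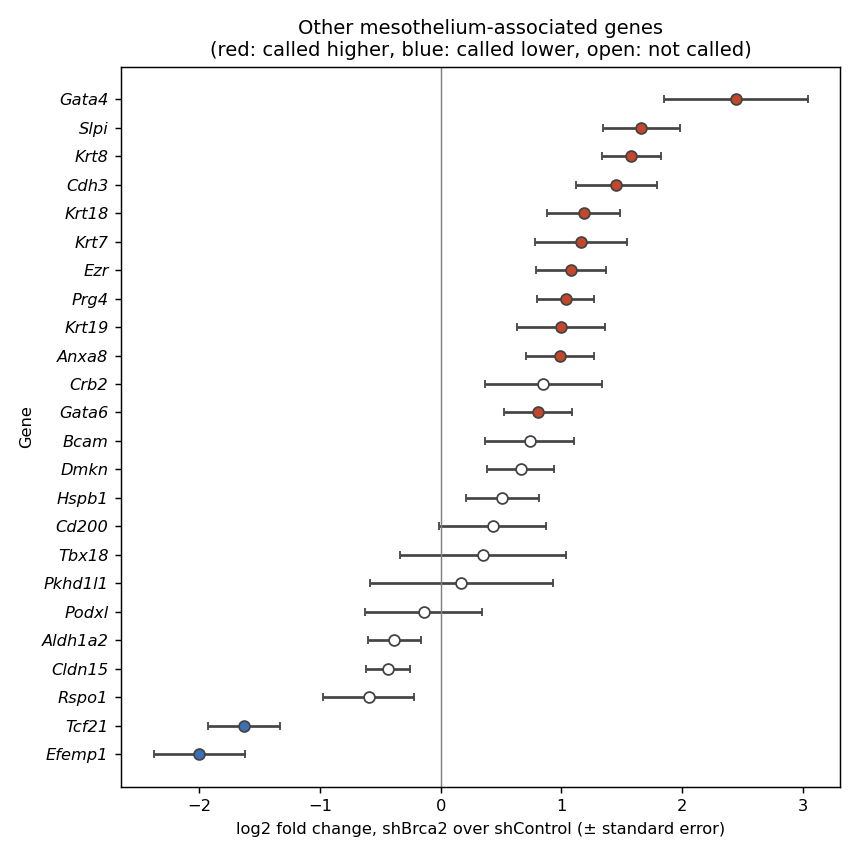
Log2 fold change of shBrca2 over shControl (x axis, ± standard error) for the 24 tested genes of the wider mesothelial list. Red marks the 11 called higher, from Gata6 at 0.80 to Gata4 at 2.45, blue the 2 called lower, Tcf21 and Efemp1, and open symbols the 11 not called.

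Keratins, Slpi and Cdh3 are also expressed by epithelial cells, and epithelial markers were counted in the same libraries. Of a list of 20 epithelial and tumor cell genes 10 were tested, and 4 were called higher (Cldn3, Elf3, Spint1 and Spint2), against 3.77% of all tested genes. With 1 library left out the number was 2 to 4, and 2 without shControl replicate 2, shBrca2 replicate 1 or shBrca2 replicate 4. Cldn3 had 5.1, 40.5 and 52.5 normalized counts in shControl CAFs and 173.0, 118.9, 188.3 and 107.7 in shBrca2 CAFs (log2 fold change 2.17 ± 0.72, SE; DESeq2 adjusted p = 0.061, lost in 5 of the 7 fits that left out 1 library). Exons of Cldn3 share 906 of 1259 bases with a gene on the opposite strand, so its counts are uncertain. Cdh1, encoding E-cadherin, had 0.9, 6.3 and 4.9 normalized counts in shControl and 14.6, 7.0, 6.9 and 17.3 in shBrca2 CAFs and was not called (adjusted p = 0.19), and Cldn7 was at 0 in shBrca2 replicates 3 and 4. The summed level of the list was 701.3 to 2984 in shControl and 848.7 to 1865 in shBrca2 libraries, most of it from Lcn2, a secreted protein. Without Lcn2, a sum taken after the values had been seen, it was 58.9 to 141.1 in shControl and 256.5 to 352.0 in shBrca2 libraries, so these sums did not overlap and were higher in shBrca2 CAFs, as the keratins were. The part of epithelial or tumor cells in the keratin values was not tested.

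Antigen-presentation genes were read from a list of 10 antigen-presenting CAF genes, again beside 3.77% of all tested genes called higher and 5.27% called lower. 1 was called higher (H2-DMb1; DESeq2 adjusted p = 0.099, lost in 6 of the 7 fits that left out 1 library) and 1 lower (Fcgrt; adjusted p = 0.020, lost without shControl replicate 1 or 4 or shBrca2 replicate 1 or 4), at a median of 0.37 on the log2 scale. Cd74, the MHC class II invariant chain, had 278.5, 779.3 and 1686 normalized counts in shControl CAFs and 938.9, 1890, 1416 and 873.1 in shBrca2 CAFs. H2-Aa, an MHC class II chain, had 266.5, 279.6 and 1311 in shControl and 425.1, 808.4, 804.8 and 314.1 in shBrca2 CAFs. Neither was called (DESeq2 adjusted p = 0.80 and 0.96), and shControl replicate 4 was again high, as for Upk3b and Lrrn4. Without that library 5 of the list were called higher, with a median of 0.93. Against the mean profile of the 8 members, the 8 genes of this list at a mean normalized count of at least 20 had a median r of 0.889, beside 0.0194 over 9054 other genes. The median was 0.84 for the endothelial list (3 genes), 0.753 for the wider mesothelial list (22 genes) and -0.076 for the fibroblast list (15 genes).

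**Figure D5:**
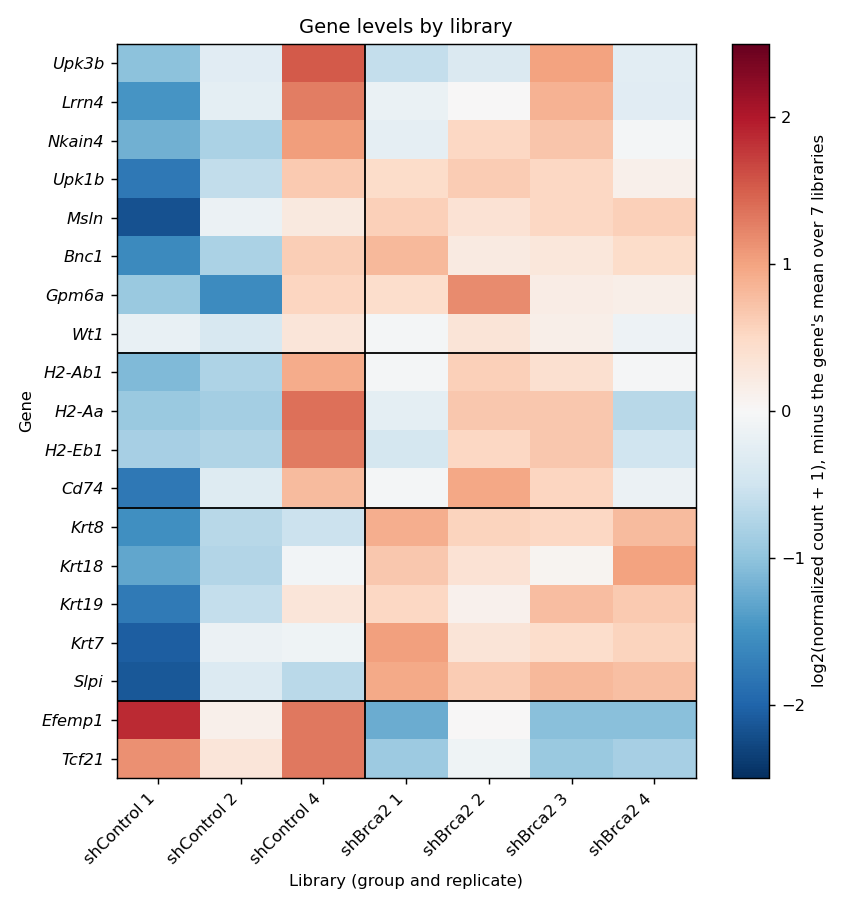
Log2 level of 19 genes in each library relative to that gene's average of all 7 libraries (colour scale; red above, blue below that average). The blocks from top to bottom are the members other than Calb2, MHC class II genes with Cd74, keratins with Slpi, and Efemp1 with Tcf21; the upper blocks are high in shControl replicate 4, while Krt8 and Slpi are low there.

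The 10 genes outside the list whose levels followed the member profile most closely in the same measure were Clta, Frmd4b, Kiz, Tst, Eps8l2, Angptl7, Glmp, Calcb, Adgrg1 and Rhbdl1, with r from 0.978 to 0.997 over 7 libraries. Over all 9054 other genes r ran from -0.992 to 0.997. Of the 10, Calcb was called higher in shBrca2 CAFs by 1.65 on the log2 scale (DESeq2 adjusted p = 9.4e-04), as were Eps8l2 (1.31; 0.033), Frmd4b (0.99; 0.088) and Kiz (0.52; 0.092).

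Genes of mesothelial-to-mesenchymal transition, in which mesothelial cells take on fibroblast features, were counted from a list of 16. 4 were called higher and 1 lower, against 3.77% and 5.27% of all tested genes, and the median fold change was 0.27 on the log2 scale. The number called higher fell to 1 when shControl replicate 4 or shBrca2 replicate 4 was left out and to 2 for shControl replicate 1, and it was 6 when shControl replicate 2 was left out. The median was 0.08 in the fit that omitted shControl replicate 4. The transcription factors of the list were not called. Their log2 fold changes were 0.08 for Snai1, 0.16 for Snai2, 0.44 for Zeb2, -0.04 for Twist1 and -0.44 for Zeb1. The mesenchymal genes Vim (-0.18) and Fn1 (-0.33) were not called either. Cdh2, encoding N-cadherin, which mesothelial cells also carry at rest, rose by 1.28 ± 0.29 on the log2 scale (SE; DESeq2 adjusted p = 6.8e-04), Tgfb1, encoding a growth factor that drives the transition, by 1.08 ± 0.37 (0.062) and Acta2, encoding smooth muscle actin, by 1.07 ± 0.32 (0.018). The Tgfb1 call was lost in 4 of the 7 fits that left out 1 library and in edgeR (adjusted p = 0.112). Acta2 was not called without shControl replicate 4 (adjusted p = 0.168) or shBrca2 replicate 4 (0.102). Acta2 is also a gene of pericytes, and of 8 measured pericyte genes Notch3, Ndufa4l2 and Des were called higher, against 3.77% of all tested genes. The number was 1 without shControl replicate 4 and 2 to 4 with any other library left out. The pericyte sums, 876.4 to 1793 in shControl and 1831 to 2360 in shBrca2 libraries, did not overlap, and most of them came from Des and Ndufa4l2. The other pericyte genes were not called. Their log2 fold changes were 0.59 for Rgs5, 0.49 for Mcam, 0.25 for Cspg4, -0.13 for Kcnj8 and -0.32 for Abcc9. Exons of Ndufa4l2 share 727 of 1148 bases with a gene on the opposite strand, so its counts are uncertain. The part of pericytes in the Acta2 value was not tested. The receptor gene Tgfbr2 fell, with a log2 fold change of -0.77 ± 0.18 (adjusted p = 0.0012). Of 15 fibroblast genes 4 were called lower, against 5.27% of all tested genes, and the number was 2 without shControl replicate 1. Dpt, encoding the matrix protein dermatopontin, fell most, at -1.73 ± 0.34 on the log2 scale (DESeq2 adjusted p = 3.7e-05), beside Pi16 at -1.35 ± 0.17 (adjusted p = 4.5e-12). Lum was called as well but not without shControl replicate 1 (adjusted p = 0.115), and Dcn was called (adjusted p = 0.069) but not in edgeR (0.125) or without shControl replicate 1 or 4 or shBrca2 replicate 1 or 4. The summed level of the fibroblast list was 147500 to 166500 in shControl and 113600 to 137600 in shBrca2 libraries, so the sums did not overlap, while those of the members did (910.6 to 3000 and 2037 to 2698).

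The positions of the members in GRCm38.p6 were chromosome 17, 25748613 to 25754378 for Msln, chromosome 5, 136038496 to 136044993 for Upk3b, chromosome 16, 38773182 to 38800203 for Upk1b, chromosome 2, 132866686 to 132894010 for Lrrn4 and chromosome 8, 110142526 to 110168212 for Calb2. Gpm6a lay at chromosome 8, 54779434 to 55060878, Wt1 at chromosome 2, 105126529 to 105173614, Bnc1 at chromosome 7, 81966657 to 81992299 and Nkain4 at chromosome 2, 180934766 to 180954937. Exons of Lrrn4 share 1577 of 8197 bases with genes on the opposite strand, Wt1 shares 246 of 6444, Upk3b 214 of 3531 and Nkain4 55 of 1265. Whether counting used the strand was not given in the sources used here, so reads within the shared bases cannot be told apart from those of the antisense neighbours. Where the shared bases lie relative to the 3' end of each gene was not examined. Msln, Upk1b, Calb2, Gpm6a and Bnc1 share no exon base with another gene.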

How the data were processed

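The authors deposited raw counts per gene symbol, 1 column per library, with 3 shControl and 4 shBrca2 libraries. The submitters' processing notes name mm10, bcl2fastq, cutadapt, STAR 2.4.2a, HTSeq and DESeq2. Annotation, use of strand and collapsing of molecular barcodes were not given in the sources used here, so counts may include PCR copies. Intervals come from the DESeq2 standard errors, which include the spread between libraries, while the floor covers counting error only. Groups were taken from the labelled silencing status of the KPC cells. The study gives 3 and 4 mice for these groups, so the libraries were taken as separate mice, although the labels do not tie libraries to animals.

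The counts of all 12771 genes were fitted in DESeq2 1.42.0 under R 4.3.3, scaled by median-of-ratios size factors, and the group effect was tested by likelihood ratio without covariates. Calls needed an adjusted p under 0.1, an absolute log2 fold change over 0.5 and a mean normalized count over 5, which are the thresholds of the study's methods. 3 genes had no adjusted p. Log2 levels used a pseudocount of 1. The script was tested on simulated data. Alternatives were edgeR 4.0.16 quasi-likelihood tests, TMM size factors, a filter on low counts (at least 10 counts in 3 libraries), no independent filtering, a replicate block and leaving out each library. The members and all gene lists were chosen with earlier results of these data known. Named genes were all members, the called genes of each list with the largest changes, their defining markers and the 10 genes most like the member profile. Promoter windows and GRCm38.p6 positions came from RefSeq, and exon overlaps from GENCODE on GRCm39, as numbers of bases.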

Additional observations from a re-analysis of the deposited data

Results flagged for a closer look

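The shBrca2 value of Upk3b in replicate 3, 177.9 normalized counts, stood far from the other 3 shBrca2 libraries, with a gap of 0.871 of the range of the group, above Dixon's 95% limit for 4 values. Efemp1 in shBrca2 replicate 2 stood apart in the same way, at 511.2 normalized counts (gap 0.896 of the range). Tcf21 did so in the same library, at 132.9 normalized counts (0.914). Chance gives such a gap in about 5% of groups of 4, and the 3 shControl libraries were too few for the rule.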

How the results depend on the processing

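Calb2 kept its call in every alternative that gave it an adjusted p, although several of these were weak checks, as given above. It did not pass the filter of the edgeR quasi-likelihood test and had no adjusted p with the replicate block, so 0 members were called higher in those fits. In edgeR without that filter, a fit added after the data had been seen, Calb2 was called. Members called higher numbered 1 to 6 when 1 library was left out. Over all genes, 481 genes were called higher, 211 with the replicate block and 261 to 610 with 1 library left out. Called lower were 673, 280 with the replicate block and 354 to 695 with 1 library left out. With 1 library left out, the log2 fold change ran from -0.89 to 0.70 for Upk3b, positive only without shControl replicate 4. It ran from -0.54 to 0.92 for Lrrn4 (positive without shControl replicate 4 or shBrca2 replicate 1 or 4, and 0.017 with the block), from -0.12 to 1.27 for Nkain4 (negative without shControl replicate 1 or 2), from -0.44 to 1.11 for H2-Aa (positive as for Lrrn4, and 0.12 with the block) and from -0.069 to 1.19 for H2-Ab1 (negative without shControl replicate 1). The cause was not tested, beyond the smaller number of libraries and genes in these fits. The labels do not say whether the replicate numbers pair the libraries. After each group's mean was taken off, same-numbered libraries had correlations of -0.091, -0.127 and -0.14 over 9062 genes. Pairs with unlike numbers had -0.148 to 0.256. These values cannot decide on a pairing, since the deviations are from means of few libraries.

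The standard errors, 0.47 to 0.76 on the log2 scale for the 7 members other than Calb2 and Wt1, limit which changes could be told from 0. Calb2, Gpm6a and Bnc1 rest on few counts.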
